A study of Mus musculus with 6 samples.

Results

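The genes of the AP-1 factors Fos, Fosb, Fosl1, Fosl2, Jun, Junb, Jund, Batf and Batf3 were examined in ATAC-seq of mouse CD8+ T cells kept with or without the saturated fatty acid palmitate. A region of the count matrix was taken as a member if it overlapped the span of 1 of these 9 genes, or if its nearest protein-coding gene end belonged to one of them and lay within 50 kb. This rule, which used no measured value, gave 30 of 24605 regions. There were 6 at Fos, 5 at Fosb, 1 at Fosl1 and 3 at each of Fosl2, Jun, Junb, Jund, Batf and Batf3. All 30 passed the filter on low counts. Naming a region after the closest gene does not show that it acts on that gene.

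Wild-type (WT) mice gave the CD8+ T cells, which per the labels came out of the pancreas, the spleen and the lymph nodes, were sorted by FACS and were cultured in complete T cell medium. There were 3 libraries labelled palmitate (100 µM) and 3 labelled control, each after 48 hours. The treatment text of all 6 names palmitate, and the groups here follow the treatment label of each sample. The labels name no vehicle or carrier for the control and no age, sex or strain of the mice. They number the replicates without saying whether these came from separate mice or cultures, so p-values measure only the spread between libraries, which may be technical. ATAC-seq counts fragments cut by the Tn5 transposase, so a count measures how accessible a region is, and not how much RNA or protein a gene makes.

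AP-1 is a dimer of basic leucine zipper (bZIP) proteins. Jun proteins can pair with themselves or with Fos proteins, while Fos proteins need a Jun partner, and the dimers bind DNA at the motif TGACTCA. In T cells, antigen receptor and costimulatory signals induce Fos and Jun through MAP kinases, and AP-1 binds together with NFAT at cytokine genes. Batf and Batf3 lack the transactivation domains of Fos, pair with Jun proteins and bind with IRF4 or IRF8. Batf is required for the effector differentiation of CD8+ T cells, and Batf3 is best known for the development of cross-presenting dendritic cells and also takes part in T cell memory.

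Counts in regions totalled 2219136 to 3089230 per library. The members took 4789 to 7085 of them. Control 2 lay nearest to the palmitate libraries on the first principal component, at -27.3 against -43.8 and -38.2 for controls 1 and 3. All 8 markers of CD8 T cells had a region at a gene end, and their summed level was 346.5 to 385 CPM in control and 329 to 388 CPM in palmitate (CPM are counts scaled to a library size that carries the TMM factor, edgeR's trimmed mean of M-values). Of these 8, Thy1 was lower (32.3 to 22.1 CPM, log2 fold change -0.55, edgeR adjusted p 0.0108) and 7 did not pass. In a second edgeR fit that takes out how counts vary with region strength (trended offsets, below), Thy1 did not pass either (adjusted p 0.0594). No region lay at the ends of the B cell markers Cd79a, Cd79b, Ms4a1 and Pax5, or of the 5 pancreatic markers, among them Ins2. The myeloid list had 2 of 5 (Itgam and Spi1, summing to 12.6 to 20.4 CPM in control and 20.1 to 24.5 CPM in palmitate), the CD4 list 1 of 3 (Zbtb7b, 34.9 to 51.4 and 46.5 to 73.4 CPM) and the NK list 1 of 3 (Eomes, 25.7 to 26.9 and 30.6 to 35.3 CPM). Itgam and Zbtb7b were higher in palmitate (edgeR adjusted p 0.0151 and 0.0121). With trended offsets Itgam still passed and Zbtb7b did not (edgeR adjusted p 0.00469 and 0.0886). The Itgam region was weak, at 6.33 CPM in control and 12 CPM in palmitate. The part of these values in the results was not tested.

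The promoters of 4 members are shown because each was open in every library and they differ in the elements they hold. Each run is the 250 bases before the transcription start from RefSeq (GRCm38.p6, the assembly of mm10), 5′ to 3′ on the strand of the gene, with matches to the searched motifs in capitals.
Fos (chr12:85473640-85473889, plus strand): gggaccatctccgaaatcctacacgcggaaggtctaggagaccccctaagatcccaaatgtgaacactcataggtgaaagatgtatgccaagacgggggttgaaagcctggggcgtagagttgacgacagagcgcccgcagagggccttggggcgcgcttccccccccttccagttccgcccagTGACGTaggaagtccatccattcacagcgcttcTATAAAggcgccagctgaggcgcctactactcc
Jun (chr4:95052223-95052472, minus strand): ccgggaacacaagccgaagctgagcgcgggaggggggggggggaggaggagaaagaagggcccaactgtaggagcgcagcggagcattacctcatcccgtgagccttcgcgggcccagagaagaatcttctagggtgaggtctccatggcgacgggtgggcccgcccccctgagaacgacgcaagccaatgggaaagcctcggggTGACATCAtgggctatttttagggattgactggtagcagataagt
Junb (chr8:84978749-84978998, minus strand): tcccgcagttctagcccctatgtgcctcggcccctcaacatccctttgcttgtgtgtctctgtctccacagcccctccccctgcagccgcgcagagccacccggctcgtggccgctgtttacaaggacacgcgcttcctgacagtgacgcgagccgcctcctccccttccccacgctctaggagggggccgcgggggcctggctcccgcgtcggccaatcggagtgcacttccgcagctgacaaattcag
Batf (chr12:85686470-85686719, plus strand): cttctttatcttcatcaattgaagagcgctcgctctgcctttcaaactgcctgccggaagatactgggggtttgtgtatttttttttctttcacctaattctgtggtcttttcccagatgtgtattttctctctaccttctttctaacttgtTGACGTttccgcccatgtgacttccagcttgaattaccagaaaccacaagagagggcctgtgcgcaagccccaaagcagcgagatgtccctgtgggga
Both strands were searched for TGACTCA (AP-1), TGACGTCA (the cAMP response element, CRE), its core TGACGT, TGACATCA (an AP-1-like element known from Jun promoters), the CArG box bound by serum response factor, and the TATA box TATAAA. The CRE core lies inside the full CRE, and such a match was counted in both. TGACATCA, the CArG box, the CRE core and TATAAA were added after the sequences were seen. In Fos the capitals mark TGACGT and TATAAA, whose first bases lie at -66 and -33 from the start. In Jun they mark TGACATCA at -45, in Batf TGACGT at -98, and the stretch shown for Junb held none of the 6.

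Over windows from 250 bases before the start to 50 after it, TGACTCA and TGACGTCA occurred in 0 of the 8 members with a RefSeq promoter, against 5.2% and 1.79% of all 32851 promoters. TGACATCA was found in 1 of 8 (3.62% of all), TGACGT in 2 (7.51%), TATAAA in 2, Fos and Junb (13.6%), and the CArG box in 0 (1.63%). The Junb match to TATAAA lay after the start, outside the stretch shown, and so not where the Fos match lies. Sequence more than 250 bases before the start was not searched, so a motif absent from these windows may lie farther upstream. These are matches of letters and say nothing of binding. Each of the 6 peak lists had a peak over the promoter windows of Fos, Fosb, Jun, Junb and Batf. For Batf3 1 list, that of control 3, had one. For Fosl2 and Jund none did, and the strongest regions of those genes lay 0.45 kb before and 0.627 kb after the annotated start.

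Accessibility rose at 9 of the 30 regions and fell at 2 in palmitate (edgeR quasi-likelihood test with Benjamini-Hochberg adjustment over all 24316 tested regions, false discovery rate 0.05). Over all tested regions, 11.9% were called higher and 12.7% lower. Of the 9 members that rose, 6 were at the Jun genes and 3 at Fos genes, and both that fell were at Batf3. The count of lower members was 1 without control 1, control 3, palmitate 1 or palmitate 2, and 4 without control 2. Over all tested regions the lower calls moved too, from 3078 to 2283, 1871, 2432, 2072 and 3391 in the same order. Without palmitate 3 the members stayed at 2 lower, where all regions had 1919. The median log2 fold change of the 30 was 0.07, against -0.05 over all tested regions. An ATAC-seq library is a bulk sample, so fewer cells with an open region and less opening per cell cannot be told apart.

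Most gains were at strong regions. In these libraries the fold change of all regions rises with region strength, from a median log2 fold change of -0.59 in the weakest decile to 0.27 in the strongest. Of the 30 members 17 were in the 3 strongest deciles, and 8 of the 9 that rose were in the 2 strongest. The test was therefore also run with trended offsets, which take out, library by library, how counts vary with strength. Then 3 members were higher and 1 lower, while 2.3% of all regions were called higher and 4.17% lower. The 3 were at Junb, Jund and Batf, and the lower one was at Batf3. With a library left out, the trended calls among members ranged from 0 (without control 1, control 3 or palmitate 2) to 2 higher and from 1 to 3 lower. The shares of all regions called in those fits are not given here, so these counts cannot be set against them.

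**Figure D1:**
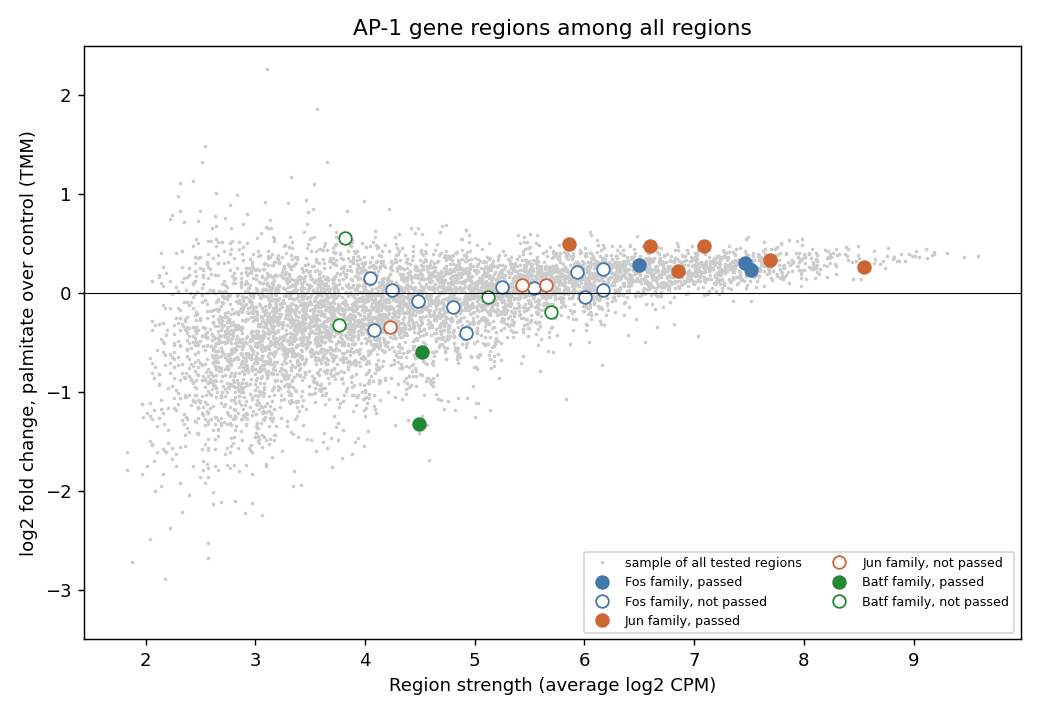
Log2 fold change (palmitate over control, TMM scaling) of each region against its strength (average log2 CPM). Grey dots are a random sample of all tested regions and coloured circles the 30 AP-1 gene regions, filled where they passed. The filled Jun and Fos circles lie on the right, where the grey cloud is above 0, and the lowest filled circle is the Batf3 region at -1.32.

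Of the 11 member regions within 1 kb of a gene end, 6 rose and 0 fell with TMM, against 25% higher and 2.47% lower of all gene-end regions. The trended fit called 2 higher and 0 lower (2.69% and 1.42% of all gene ends). Of the other 19 members, 3 rose and 2 fell, where 3.62% of all regions away from gene ends were higher and 19.1% lower, and with trended offsets 1 was higher and 1 lower (2.05% and 5.9%). The median log2 fold change was 0.22 at the members' gene ends and -0.04 at their other regions, against 0.14 and -0.24 over all tested regions of each kind. The palmitate libraries all lay above the controls in 11 of the 30 and all below in 2, and over all tested regions in 17.9% and 21%.

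Junb encodes a Jun protein, and its 3 regions all rose. The region just past the 3′ end (chr8:84976342-84976778, 1.97 kb after the start) had 119, 98.8 and 123 CPM in controls 1 to 3 and 145, 164.5 and 163 CPM in palmitate libraries 1 to 3. All palmitate values lay above all controls. The log2 fold change was 0.48 ± 0.083 (SE, n = 3 per group; edgeR adjusted p 9.62e-05), a 1.39-fold rise. With trended offsets it was 0.25 ± 0.076 (adjusted p 0.0449), and with the replicate number as a block beside them it did not pass (0.0504).

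The region 1.08 kb before the Junb start (chr8:84979830-84980277) went from 81 ± 7.94 to 112 ± 16.1 CPM (mean ± SD, n = 3). Control libraries had 87.6, 72.2 and 83.3 CPM and palmitate libraries 108, 129 and 97.4 CPM, with no overlap. Its log2 fold change was 0.47 ± 0.098 (edgeR adjusted p 0.000649), and 0.29 with trended offsets, which did not pass (0.0618). Over the start itself (chr8:84978513-84978955), the region that holds the promoter shown above, controls had 113, 102 and 104 CPM and palmitate libraries 126.5, 123 and 122 CPM. This change was the smallest of the 3, at 0.22 ± 0.079 (edgeR adjusted p 0.0395). It did not pass in 14 of 19 alternatives, among them leaving out each library in turn other than control 1 (adjusted p 0.0784 to 0.102), the replicate block (0.0554) and trended offsets (0.976, log2 fold change 0.01).

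Jund, the Jun protein that is made steadily and restrains proliferation in many cells, had the strongest member region. This region inside the gene (chr8:70698366-70699311) had 356, 289.5 and 373 CPM in control and 389.8, 429 and 404.5 CPM in palmitate, which ranks it 105 of the 24316 tested. The 3 palmitate libraries lay above the 3 controls, of which control 2 was the lowest. The log2 fold change of 0.27 ± 0.07 (SE) passed (edgeR adjusted p 0.00508). It equals the median of the strongest decile to 2 decimals, and with trended offsets it was -0.09 (adjusted p 0.359), the opposite sign.

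A weaker and narrower region just past the Jund 3′ end (chr8:70700626-70700813) also rose. Controls had 44, 46.3 and 52 CPM there, and palmitate libraries 55.6, 77.8 and 67.1 CPM. The values did not overlap, and palmitate 2 was the highest. Its log2 fold change was 0.50 ± 0.12 (edgeR adjusted p 0.00283), 1.41-fold, where the median of its decile was 0.09. With trended offsets it was 0.39 ± 0.12 (0.0429). This region also lies 0.508 kb from an end of Iqcn, and 5 of the 6 peak lists held it. The third Jund region, 2.07 kb before the start, had a log2 fold change of 0.08 and did not pass.

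Jun, the founding member of the family and the main Fos partner, rose at its start (chr4:95051945-95052854). Its CPM were 173, 186 and 188 in control and 196, 253.5 and 238.5 in palmitate. The lowest palmitate library, replicate 1, was close to the highest control. Its log2 fold change was 0.33 ± 0.076 (SE; edgeR adjusted p 0.00171), and 0.04 with trended offsets (0.76). The region 0.954 kb before the start had 41.3 ± 2.48 CPM in control and 43.5 ± 5.74 CPM in palmitate (n = 3), and the one 16.4 kb after the start 20.2 ± 5.36 and 15.8 ± 0.81 CPM. Neither passed (edgeR adjusted p 0.684 and 0.248).

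**Figure D2:**
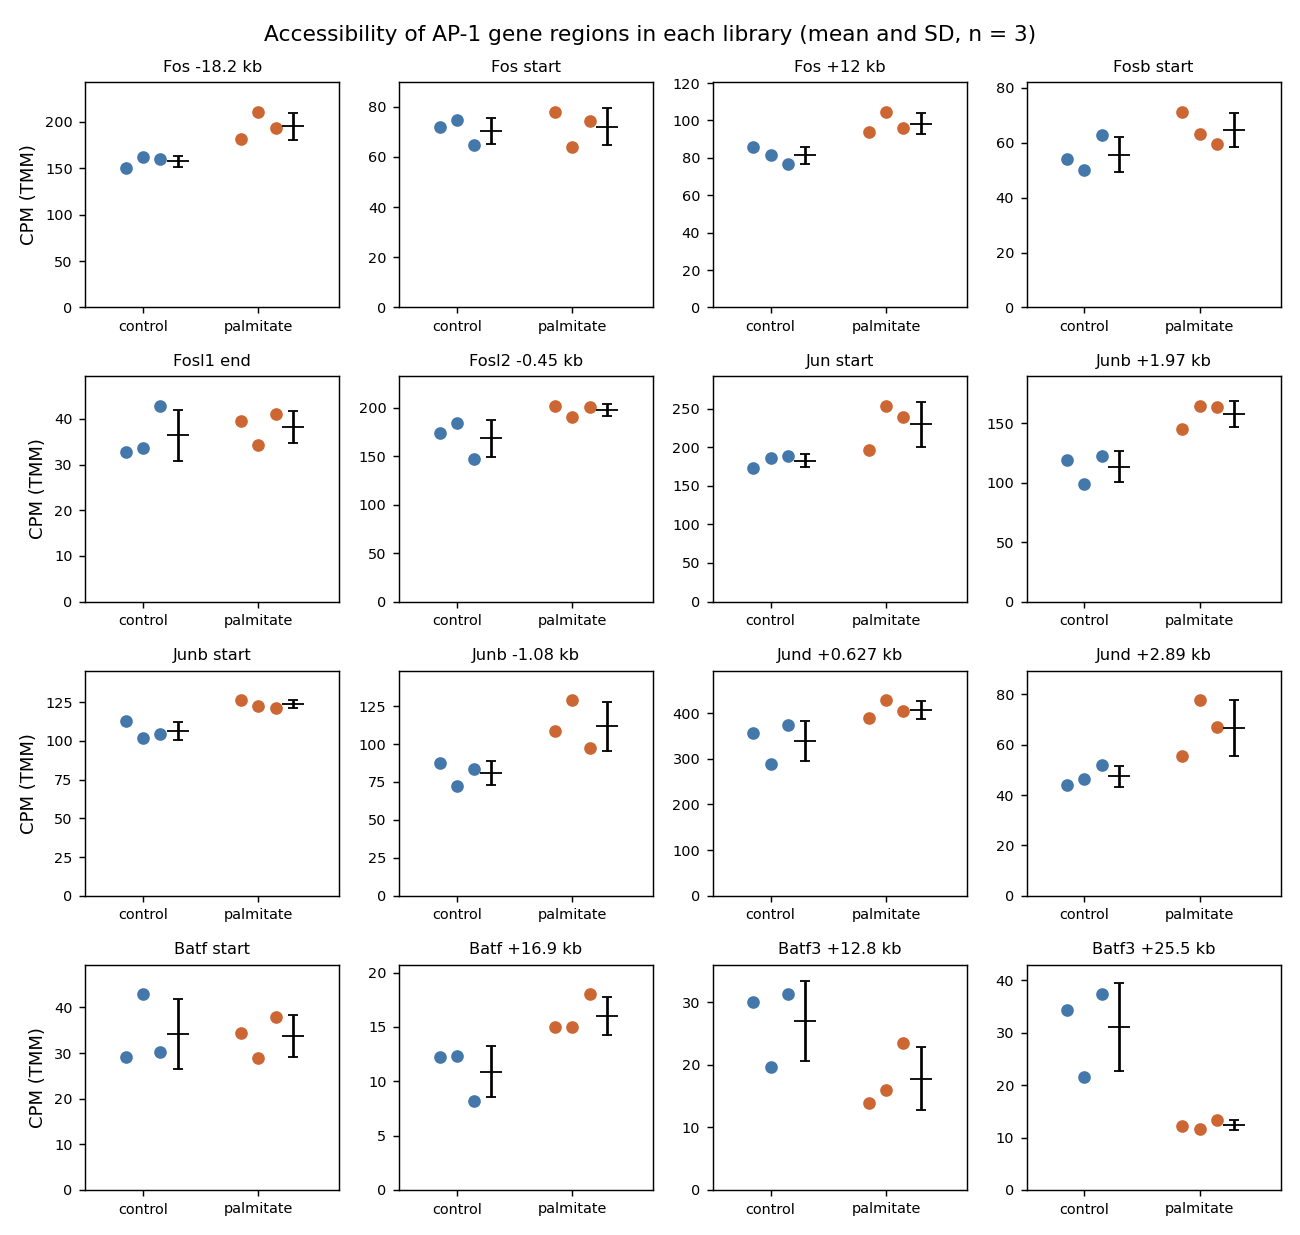
CPM (TMM-scaled) in each library at the 16 named AP-1 gene regions, which are those that passed with TMM or trended offsets and the strongest gene-end region of each gene. Panels are named by the distance from the transcription start in kb, points are libraries 1 to 3 from left to right, and the bar beside them is the mean ± SD. At Batf3 +25.5 kb the palmitate libraries lie between 11.6 and 13.4 CPM and the controls between 21.6 and 37.4 CPM.

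Fos, the immediate early gene whose protein needs a Jun partner, did not pass the test at its start. That region (chr12:85473473-85474239), which holds the promoter with the CRE core and TATAAA shown above, had 71.9, 74.9 and 64.6 CPM in control and 78.1, 63.9 and 74.4 CPM in palmitate. The groups overlapped, and the log2 fold change was 0.03 ± 0.102 (SE; edgeR adjusted p 0.863).

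The Fos regions that passed were distal. One 18.2 kb before the start (chr12:85455072-85455697) was the strongest region of the locus, stronger than the promoter. It had 150.3, 162 and 159.5 CPM in control and 181, 211 and 193 CPM in palmitate, with no overlap. This was a log2 fold change of 0.31 ± 0.072 (edgeR adjusted p 0.00194). Another, 12 kb after the start (chr12:85485862-85486323), had 85.8, 81.5 and 76.5 CPM in control and 93.8, 104.7 and 96.3 CPM in palmitate. It rose by 0.28 ± 0.088 (edgeR adjusted p 0.0193). Neither passed with trended offsets (log2 fold changes 0.04 and 0.10, adjusted p 0.768 and 0.532). The second did not pass in 9 of 19 alternatives. Among them were leaving out control 3 or palmitate 2 (edgeR adjusted p 0.0766 and 0.108), total counts (edgeR, 0.169) and DESeq2's Wald test (0.0741). The other 3 Fos regions, 26.4, 28.8 and 43.1 kb before the start, had log2 fold changes of -0.04, -0.08 and -0.38, and none passed.

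Fosl2, which encodes Fra-2, had a strong region 0.45 kb before its start (chr5:32135112-32136022). Controls had 174, 184 and 147 CPM and palmitate libraries 202, 190.3 and 201 CPM. Control 3 was the lowest, and the groups did not overlap. The log2 fold change of 0.23 ± 0.075 (edgeR adjusted p 0.0228) was lost without control 3 (0.166), palmitate 1 (0.0708) or palmitate 3 (0.0879), and became -0.04 with trended offsets (0.79). A region 55.6 kb after the start had 33.5 ± 6.94 CPM in control and 25.5 ± 1.55 in palmitate (n = 3), with the palmitate libraries all below, and did not pass (edgeR adjusted p 0.0705).

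Fosb, an immediate early gene like Fos, had 5 regions with log2 fold changes from 0.03 to 0.24, and none passed. At its start (chr7:19310036-19310486) controls had 54, 50.2 and 62.9 CPM and palmitate libraries 71.4, 63.2 and 59.4 CPM, which overlap (0.21 ± 0.11, edgeR adjusted p 0.17). Fosl1, which encodes Fra-1, had the single region at its gene end (chr19:5447511-5448057), with 32.7, 33.6 and 42.8 CPM in control and 39.4, 34.3 and 41 CPM in palmitate. This gave a log2 fold change of 0.06 ± 0.14 (edgeR adjusted p 0.793).

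Batf3 was the member locus that lost accessibility. Its region 25.5 kb after the start, beyond the 3′ end (chr1:191123918-191124556), had 34.4, 21.6 and 37.4 CPM in control and 12.2, 11.6 and 13.4 CPM in palmitate. In raw counts these were 79, 65 and 110 against 31, 34 and 35. Every palmitate library lay below every control, and control 2 was the lowest control. The log2 fold change was -1.32 ± 0.21 (SE, n = 3 per group; edgeR adjusted p 3.32e-05), to 0.4 of the control level, where the median of its decile of strength was -0.08. It was -1.20 ± 0.21 with trended offsets (adjusted p 0.000607), and it passed in all 19 alternatives, glmTreat against a 1.5-fold change included. All 6 peak lists held it. The next protein-coding gene was Fam71a, with an end 38 kb away.

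A second Batf3 region, 12.8 kb after the start (chr1:191111217-191111689), had 30.1, 19.6 and 31.3 CPM in control and 13.8, 16 and 23.4 CPM in palmitate. Control 2 lay below palmitate 3, so the groups overlapped. The log2 fold change was -0.60 ± 0.21 (edgeR adjusted p 0.0313), and leaving out control 1 or 3 (adjusted p 0.101 and 0.2) or palmitate 1 or 2 (0.159 and 0.116) ended the call. So did trended offsets (0.157) and DESeq2's Wald test (0.14). The third, 27.5 kb after the start, had 14.2 ± 1.77 and 11.3 ± 1.61 CPM (n = 3) and did not pass (edgeR adjusted p 0.324). The matrix had no region within 1 kb of either end of Batf3.

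At Batf the start (chr12:85686388-85687057) had 29.2, 42.9 and 30.3 CPM in control and 34.3, 28.9 and 38 CPM in palmitate. These overlapped, and the log2 fold change was -0.04 ± 0.16 (edgeR adjusted p 0.897). Control 2 was the highest here, and without it the log2 fold change was 0.17 (adjusted p 0.463). Inside the gene, 16.9 kb after the start (chr12:85703595-85703797), a weak region had 12.2, 12.3 and 8.16 CPM in control and 15, 15 and 18 CPM in palmitate, from 24 to 47 raw counts per library. The palmitate libraries all lay above, and 4 of the 6 peak lists held this region. Its log2 fold change of 0.56 ± 0.24 did not pass with TMM (edgeR adjusted p 0.0789) and was 0.81 ± 0.23 with trended offsets (0.0308). The median of its decile with TMM was -0.24. The region next to it, 18.5 kb after the start, had 54.8 ± 6.3 and 47.6 ± 5.98 CPM (n = 3; log2 fold change -0.19, edgeR adjusted p 0.271).

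**Figure D3:**
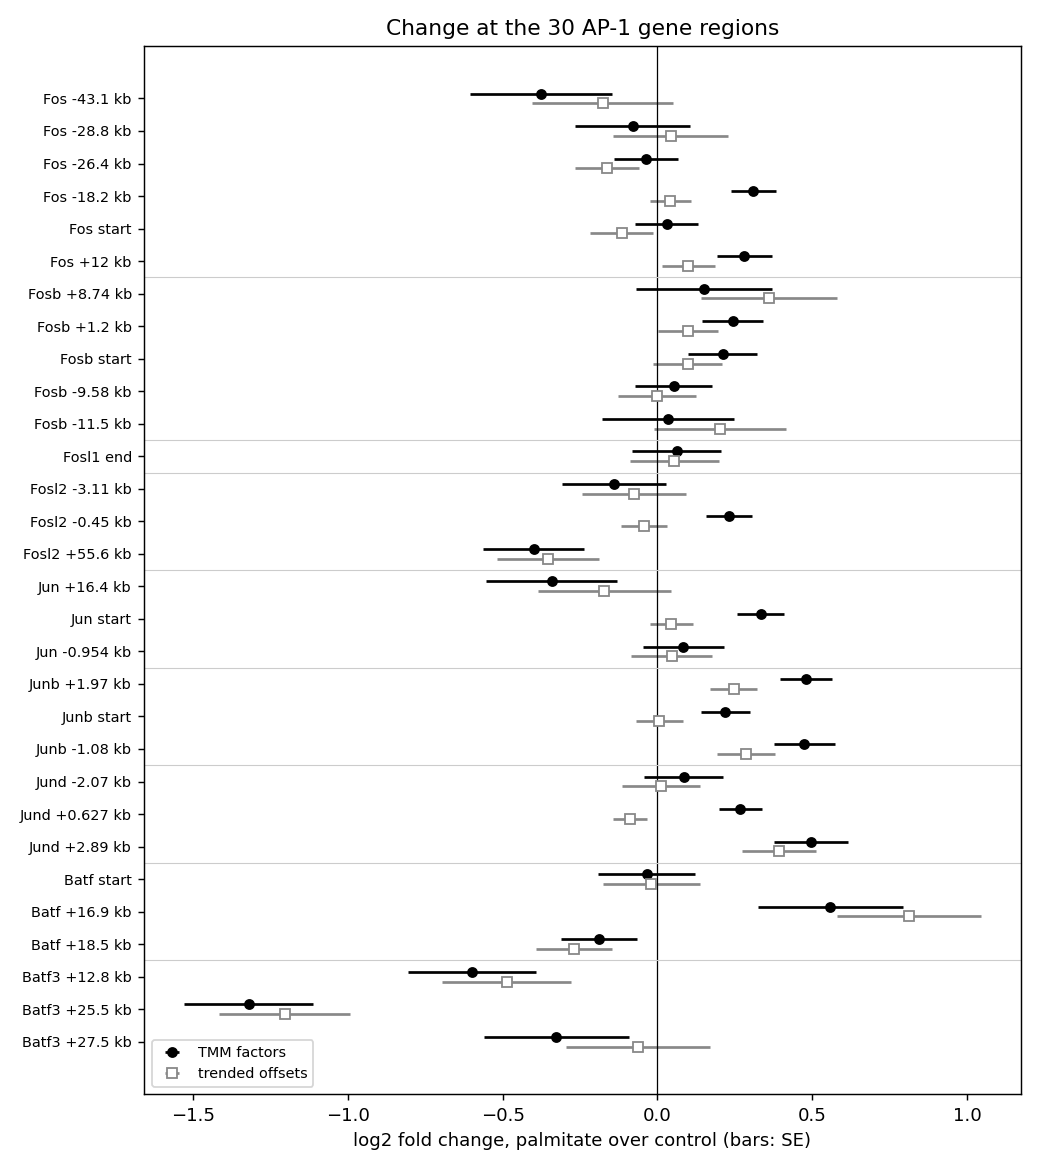
Log2 fold change (palmitate over control, bars are the SE) of all 30 AP-1 gene regions, with TMM factors (black circles) and with trended offsets (open squares), named by distance from the transcription start. The strong Jun, Jund, Fos and Fosl2 regions move to near 0 with trended offsets, and Batf3 +25.5 kb stays at -1.20.

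**Figure D4:**
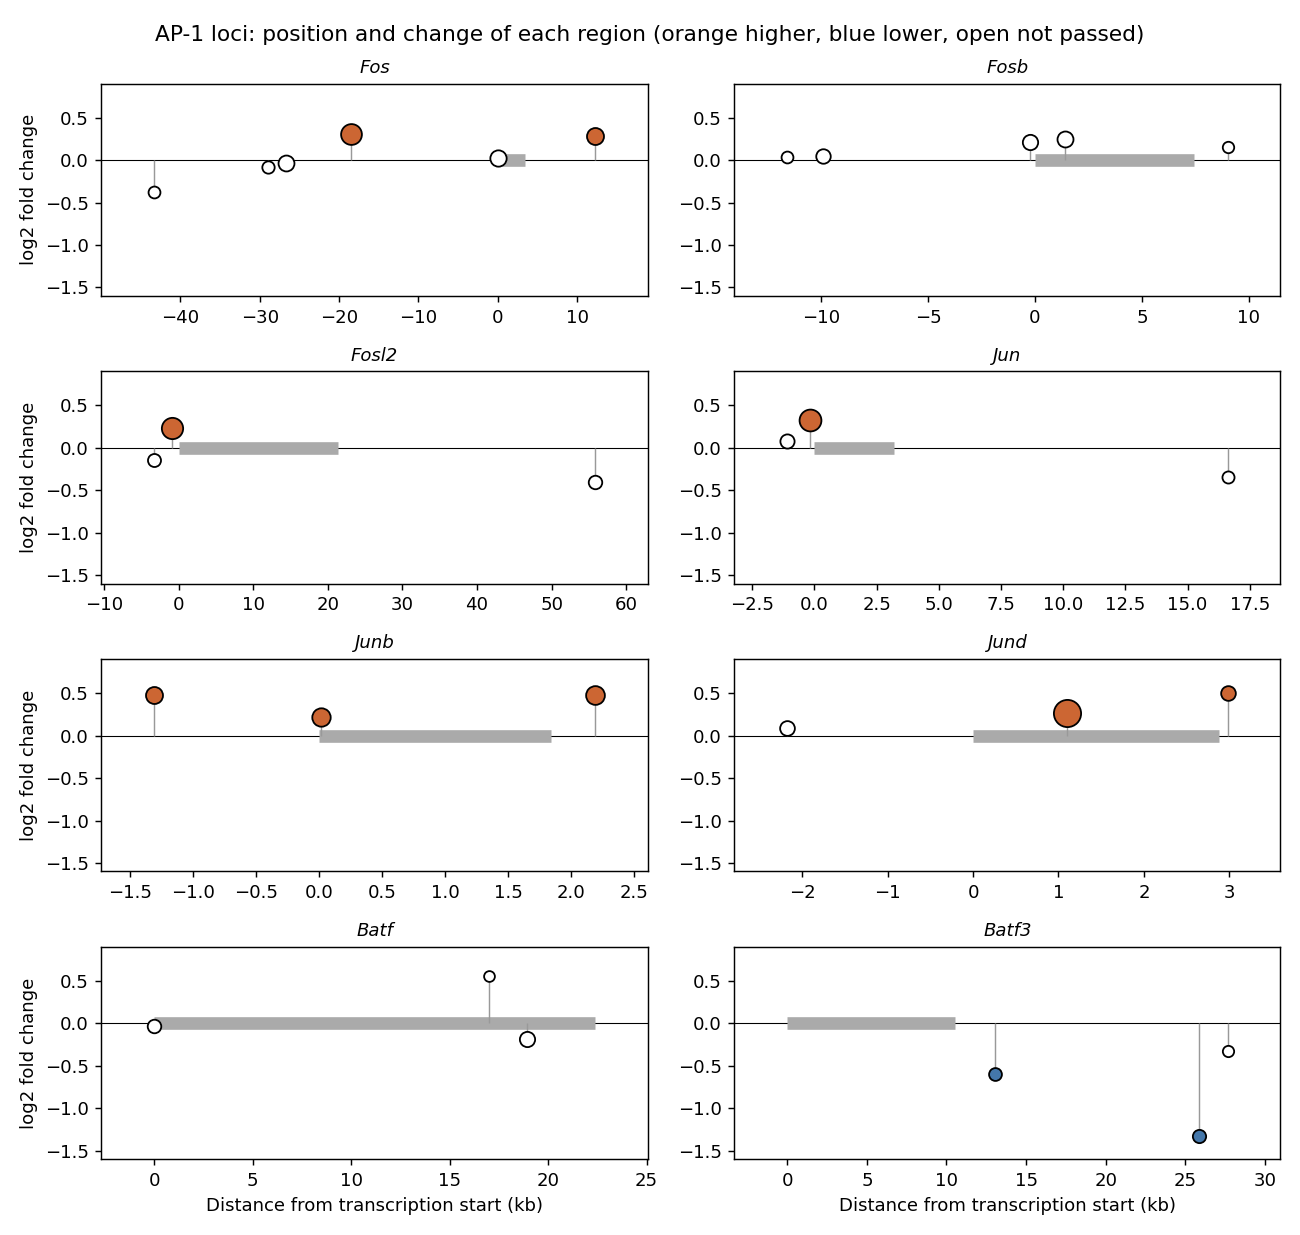
Position of each region from the transcription start (kb, gene span in grey) and its log2 fold change with TMM, for the 8 genes with an annotated start in the promoter table. Circle area grows with the control CPM. Junb is orange at all 3 regions, and Batf3 is blue at 2 of 3, both beyond the gene span.

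Whether the regions of a locus changed unequally was tested with limma's diffSplice over all 5324 loci of at least 2 regions, a test chosen after the data were seen. With TMM, 34.2% of these loci passed, and among the members Fos and Fosl2 did (adjusted p 0.0255 and 0.012), with log2 fold changes that ran from -0.38 to 0.31 and from -0.40 to 0.23. Jun, Junb, Jund, Batf and Batf3 had adjusted p of 0.0635, 0.158, 0.285, 0.0813 and 0.0621, and Fosb 0.849. With trended offsets 13.9% of loci passed and Batf alone of the members did (0.0158). Its regions 16.9 and 18.5 kb after the start had trended log2 fold changes of 0.81 and -0.27. Fos and Fosl2 then had 0.563 and 0.507, and Jund and Batf3 0.0548 and 0.0666.

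Summed over all regions of a locus, Junb and Jund rose and Batf3 fell, while the other 6 did not pass (edgeR quasi-likelihood test over 12581 loci, of which 10.8% were higher and 12.7% lower). Junb went from 277 ± 20.6 to 341 ± 15.4 CPM (n = 3; log2 fold change 0.30 ± 0.061, edgeR adjusted p 0.000699). Batf3 had 70.3, 52.8 and 76.3 CPM in control and 31, 34.2 and 42.5 CPM in palmitate, with a log2 fold change of -0.88 ± 0.13 (edgeR adjusted p 2.87e-05). Jund went from 401 ± 45.4 to 456 ± 29.4 CPM (0.19 ± 0.066, edgeR adjusted p 0.037), with overlapping groups. With trended offsets Batf3 still passed (-0.84, adjusted p 6.21e-05), Junb had 0.16 (0.0603) and Jund 0.01 (0.94), and 6.04% and 8.58% of loci were higher and lower. The Jund call was also lost without control 2, palmitate 2 or palmitate 3 (0.178, 0.211 and 0.109) and with a replicate block (0.0733). Without palmitate 1 the sum at Jun passed as well (log2 fold change 0.24, edgeR adjusted p 0.0147).

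Per kb of open region, the control level fell in the order Jund, Junb, Jun, Fosl2, Fos, Fosb, Fosl1, Batf and Batf3. It ran from 323 ± 38.8 CPM per kb at Jund and 227 ± 18.5 at Junb to 55.3 ± 3.54 at Batf and 50.9 ± 9.68 at Batf3 (n = 3). Neighbours in this order did not overlap between control libraries, other than Batf with Batf3. In palmitate Batf had 53.9 ± 4.12 CPM per kb and Batf3 29.2 ± 4.9, which did not overlap, and Fosl2 and Fos did, at 154 ± 7.66 and 143 ± 2.38.

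The authors' peak lists, called per library, gave 29, 30 and 34 peaks at the member loci in controls and 30, 31 and 29 in palmitate. The difference of means was -1 (31 ± 2.65 against 30 ± 1, n = 3; exact permutation test, two-sided, p = 0.9). Of all peaks in a list, those at the members made up 0.122% ± 0.0094 in control and 0.144% ± 0.0053 in palmitate (n = 3), with all palmitate lists above the controls. The exact permutation p was 0.1, the smallest that 3 against 3 allow. The control lists held 22359 to 27122 peaks and the palmitate lists 20201 to 21502. Of the 30 member regions 25 lay in all 6 lists (83.3%, against 60% of all regions).

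Other genes of the AP-1 network were each read at their strongest region at a gene end. Over all 9408 gene-end regions, weak ones included, 25% were higher and 2.47% lower, and 2.69% and 1.42% with trended offsets. Since calls with TMM rise with strength, these shares are not matched to the lists. The share among the strongest gene-end region of each gene was not computed. Of 12 tested kinases upstream of AP-1, 6 rose and 1 fell. Map2k2, which encodes the ERK kinase MEK2, rose by 0.51 (93.8 to 134 CPM, edgeR adjusted p 3.49e-05) and was the only one of the 12 called with trended offsets (0.30, adjusted p 0.017). The ends of Mapk14 (p38α), Mapk9 and Mapk8 (the kinases JNK2 and JNK1) and Map2k3 and Map2k4 rose with TMM by 0.42, 0.37, 0.30, 0.35 and 0.40. Map2k6, a p38 kinase kinase, fell by 0.42 (edgeR adjusted p 0.0458).

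Of 12 tested other bZIP factors 5 rose and 0 fell, namely Nfe2l1, Atf2, Atf7, Bach1 and Nfe2l2, with log2 fold changes of 0.24 to 0.32. The end of Bach2, which competes with AP-1 in T cells, had a log2 fold change of 0.30 ± 0.16 that did not pass in edgeR (adjusted p 0.18). Of 9 partners and inducing factors 5 rose and 0 fell. These were Irf4, the partner of Batf (38.9 to 49 CPM, log2 fold change 0.35, edgeR adjusted p 0.048), Nfatc3 (0.28), Mef2d (0.39), Elk4 (0.40) and Crem (0.32). With trended offsets 0 of the bZIP factors and 0 of the partners passed in edgeR. Of 10 tested AP-1 target genes 1 rose, Nr4a1, a nuclear receptor induced by antigen (46.6 to 60.7 CPM, log2 fold change 0.37, edgeR adjusted p 0.0196), and Gzmb, which encodes the cytotoxic protease granzyme B, had a log2 fold change of -0.51 and was lower (edgeR adjusted p 0.0313). The cytokine genes Ifng and Csf2 had -0.55 and -0.54 and did not pass (edgeR adjusted p 0.0645 and 0.133). With trended offsets 0 of the 10 targets passed, and Nr4a1 and Gzmb had edgeR adjusted p of 0.149 and 0.0785. The median log2 fold changes of these 4 lists were 0.24, 0.28, 0.28 and -0.04 with TMM, against 0.14 over all gene ends. With trended offsets they were 0.05, 0.05, 0.07 and -0.17, against 0.05 over all gene ends.

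Tested regions over a promoter window with the AP-1 motif TGACTCA numbered 317, of which 17.4% were higher and 6.94% lower in palmitate. Those with the full CRE numbered 320, with 27.2% higher and 0.312% lower. Over all 8081 tested regions at promoter windows the shares were 26.7% and 1.65%. The median log2 fold changes were 0.09 with the AP-1 motif, 0.16 with the CRE and 0.15 over all. With trended offsets 6 of the 317 regions with the AP-1 motif were higher and 6 lower. The counts were 8 and 2 of the 320 with the CRE, and 204 and 101 of all 8081. These values are descriptions, and the motif was read in promoters and not in distal regions, whose sequence was not used here.

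The gene-end regions whose profile over the 6 libraries came nearest to that of Batf3 at 25.5 kb were at Apon, Chit1 and BC049352, out of 9914 compared. Their log2 CPM, centred on the mean over libraries, differed from it by 0.074, 0.14 and 0.16 on average. Each was weaker than the Batf3 region, with 10.3, 13.2 and 10.6 CPM in control and 3.74, 5.24 and 4.73 CPM in palmitate.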

How the data were processed

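ATAC-seq of 6 libraries of mouse CD8+ T cells was used, 3 palmitate and 3 control. The authors deposited a matrix of unnormalized counts (24605 regions of mm10 by 6 libraries), and 1 peak list per library with a peak score of their own, used as given. Per the submitters' processing notes the tools included MACS2 2.2.8, edgeR 3.40.2, Bowtie2 2.5.1, Trim Galore 0.6.10 and Picard 2.23.8, with no role given. How regions were merged and counted, any Tn5 shift and any filter on peaks: not given in the sources used here. Coordinates are printed as the files give them.

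Regions were assigned to the nearest of 21631 protein-coding genes (RefSeq on GRCm38.p6, which is mm10). Of the 9 genes 8 had a promoter in the RefSeq table. Differential accessibility was tested on counts with edgeR 4.0.16 (R 4.3.3), glmQLFit and glmQLFTest, two-sided, with TMM factors and filterByExpr, which left 24316 regions. The SE of a log2 fold change is its size over the root of the F statistic. Trended offsets come from loess (span 0.3) of log counts, with 0.5 reads added, against average abundance, fitted per library. Alternatives used DESeq2 1.42.0 and limma 3.58.1. Fits were tested on simulated data. The members and lists were chosen with earlier results of these data known. Named regions are those that passed with TMM or trended offsets and the strongest gene-end region of each gene. Other regions are given for their locus without that rule. In the network lists the 4 genes of smallest p are named; Mapk8, Map2k4, Map2k6, Nfe2l2, Bach2 and Irf4 were added after their values were seen. Results of the alternatives, DESeq2 among them, are given in part in the closing section. Leaving out a library leaves 2 in its group.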

Additional observations from a re-analysis of the deposited data

How the results depend on the processing

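The count of 9 higher member regions became 5 with total counts, 3 with trended offsets, 0 with glmTreat against a 1.5-fold change, 2 with a replicate block and trended offsets together, and 4 among regions in all 6 peak lists. The count of 2 lower ones became 1 with trended offsets, with glmTreat, in the DESeq2 Wald test, with the block and trended offsets, and with ends within 10 kb, and ranged from 1 to 4 with a library left out. Over all regions the higher calls, 2894, became 1282 with total counts, 559 with trended offsets, 3 with glmTreat, 1888 in the DESeq2 Wald test, 466 with the block and trended offsets and 1376 in regions of all 6 lists, and the lower calls, 3078, became 1014 with trended offsets, 255, 1236, 945 and 1462 in the last 4 and 1871 (without control 3) to 3391 (without control 2) with a library left out. The lower calls rose to 4331 with total counts. With upper-quartile factors 1993 regions were higher and 3601 lower, so the balance of higher and lower calls depends on the scaling. The higher locus sums, 2, became 1 with total counts, in the DESeq2 Wald test and with a replicate block, 0 with trended offsets, and 1 to 3 with a library left out, the 3 without palmitate 1. With the replicate block alone, 8 member regions were higher and 2 lower, and 2712 and 2821 over all regions. Upper-quartile factors gave 6 higher and 3 lower members. With total counts and among regions in all 6 lists 3 were lower. In the DESeq2 Wald test 7 were higher. At a false discovery rate of 0.1 the counts were 11 and 3, and 3689 and 4185 over all regions. With a library left out, 7 to 9 members were higher, and 2066 to 2774 over all regions. Same-numbered libraries did not deviate together (correlations 0.00041, -0.103 and -0.027), so the numbers were not taken to pair them.

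The sign of some log2 fold changes turned. At Fosl2 0.45 kb before the start and Jund 0.627 kb after it, which passed with TMM, trended offsets gave -0.043 and -0.089, and trended offsets together with the block gave -0.042 and -0.086. With the block alone both stayed positive, at 0.23 and 0.27, and passed. The other turns were in values that did not pass. The Fos start went to -0.12 with trended offsets, -0.027 with upper-quartile factors, -0.086 with total counts, -0.0037 with at least 20 reads in 3 libraries, -0.12 with the block and trended offsets, and -0.059 in regions of all 6 lists, and ranged from -0.026 to 0.12 with a library left out. Fosl1 went to -0.053 with total counts and -0.027 in regions of all 6 lists, and ranged from -0.0034 to 0.23 with a library left out. The start of Batf went to 0.0059 in the DESeq2 Wald test and ranged from -0.12 to 0.17 with a library left out. The cause was not tested. Weak regions rest on few reads, such as that 16.9 kb into Batf with 24 to 47 raw counts per library. The part of depth in these values was not tested.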
